A study of Oryza sativa with 16 samples.

Results

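The genes described here are those whose difference between d1 and wild type (WT) rice meristems changed sign during panicle initiation. Expression is given as FPKM, a read density corrected for transcript length and library size, and each difference is log2(FPKM + 1) in d1 minus that in WT. A gene was a member if it had at least 1 FPKM in at least 2 of the 8 groups, an absolute difference of at least 1 at both stage 2 and stage 7, and opposite signs at these stages. Members were thus chosen by the values of WT and d1 at stages 2 and 7. Of 19757 genes that passed the filter, 64 met this rule. In 61 of them (0.309% of the genes that passed) d1 was higher at stage 2 and lower at stage 7, and in 3 (0.0152%) it was lower first and higher later. The filter removed none of them, since the rule itself requires at least 1 FPKM in a group at each of the 2 stages.

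The shoot apical meristem is the growing tip of the plant, and at panicle initiation it stops making leaves and forms the branches and spikelets of the panicle. Heterotrimeric G proteins carry signals from the cell surface through an alpha subunit and a beta-gamma pair. In rice the alpha subunit is encoded by RGA1, and d1 mutants, which lack its function, are dwarfs with short, dense panicles and small round grains.

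RNA came from meristems that had been cut out of the leaf sheath of greenhouse plants, of WT and of the d1-1 mutant of RGA1, at stages labelled 1, 2, 4 and 7 of panicle initiation. Plants were 3 months old and had grown for 100 days, and the d1 groups stand for the d1-1 allele alone. The 8 groups held 2 libraries each, 16 in all, and the authors had combined each pair into 1 value per gene. The stage numbers are not defined in the labels, and the sources used here do not say whether a library pooled several plants. With 1 value a group there is no replicate spread, no SD or n and no test of any difference, so each value below describes the authors' combined values. In whole meristems, fewer cells of a type and less RNA per cell cannot be told apart.

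The 8 groups were similar in size, with summed FPKM of 621238 to 670519. The identifier known from general knowledge as RGA1, OS05G0333200, had 27.5 to 30.3 FPKM across WT and 20.9 to 24.1 FPKM across d1. KNOX homeobox genes, which mark meristems, were present in each group, with 436 to 838 FPKM summed over 3 identifiers taken from general knowledge. No table used here pairs the members' identifiers with names: 0 of 64 were found among the symbols and synonyms of the NCBI gene table. Members are therefore given by identifier and chromosome, without names or roles.

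**Figure D1:**
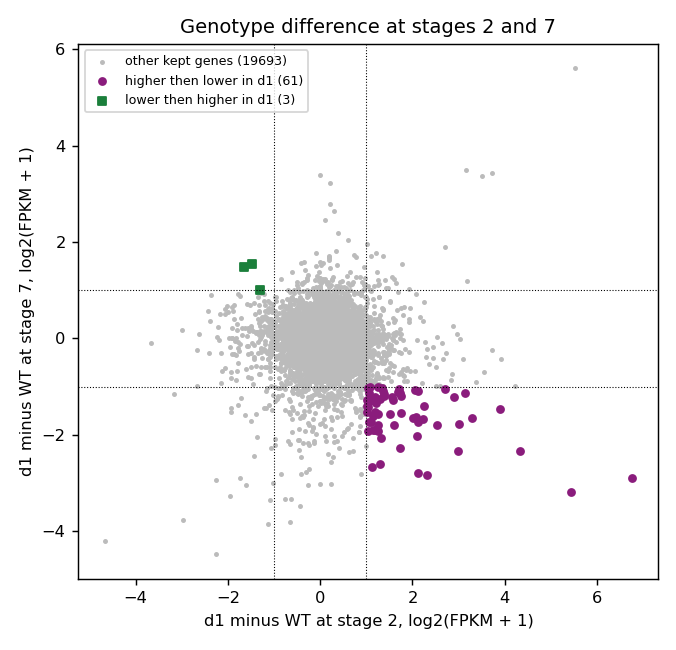
Difference of d1 minus WT in log2(FPKM + 1) at stage 2 (x axis) and stage 7 (y axis), 1 point a gene, with dotted lines at 1 and -1. The 61 higher-then-lower genes fill the lower right corner, and the 3 lower-then-higher genes are the points of the upper left corner.

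The sign change had a strong lean in direction. At stage 2, 338 genes (1.71% of those that passed the filter) were higher in d1 by at least 1, and at stage 7, 303 genes (1.53%) were lower by at least 1. The 61 genes that met both are 18.0% of the first list and 20.1% of the second. For the opposite order, 216 genes (1.09%) were lower in d1 at stage 2 and 117 genes (0.592%) were higher at stage 7. The 3 genes that met both are 1.39% and 2.56% of these lists. The 2 stages share no column, so no control value enters both differences. As the rule used these stages, the counts are a description.

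The same rule was applied to the other pairs of stages for comparison. Genes past 1 at both stages had opposite signs in 64 cases and the same sign in 54 for stages 2 and 7. The opposite and same counts were 50 and 85 for stages 1 and 2, 17 and 72 for stages 1 and 4, and 30 and 48 for stages 1 and 7. They were 53 and 55 for stages 2 and 4, and 11 and 119 for stages 4 and 7. Among these 6 pairs, stages 2 and 7 were the pair with more opposite than same signs. Counts higher then lower against lower then higher were 40 and 10 for stages 1 and 2. They were 11 and 6 for stages 1 and 4, and 26 and 4 for stages 1 and 7. For stages 2 and 4 they were near equal, at 28 and 25, and for stages 4 and 7 they were 8 and 3. Higher then lower was thus the more frequent order in each pair, so a lean this way was not particular to stages 2 and 7.

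**Figure D2:**
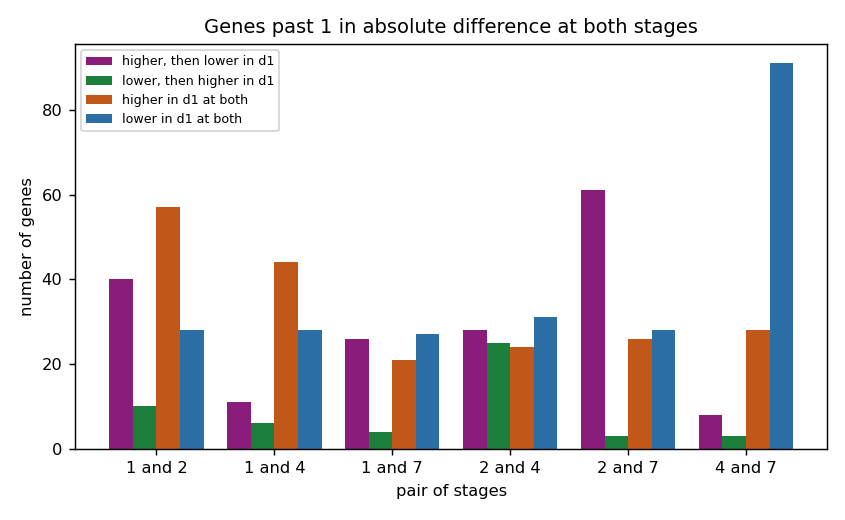
Number of genes (y axis) with an absolute difference of at least 1 at both stages of a pair (x axis), split by the sign of d1 minus WT at the earlier and the later stage. At stages 2 and 7 the bar for higher, then lower (61 genes) is the tallest, and at stages 4 and 7 it is the bar for lower at both (91 genes).

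The higher-then-lower genes had medians that ran in opposite courses in the 2 genotypes, which the rule favours at stages 2 and 7. Over stages 1, 2, 4 and 7, their median WT level ran through 2.19, 1.41, 4.60 and 6.19 FPKM. The median d1 level ran through 3.74, 7.74, 2.45 and 1.18 FPKM. The WT median was lowest at stage 2, where the d1 median was highest, and the 2 medians crossed between stages 2 and 4. The lowest of the 4 WT values was at stage 2 in 38 of the 61 genes and at stage 1 in 20. The highest of the 4 d1 values was at stage 2 in 42 genes, at stage 1 in 10 and at stage 4 in 9. As stages 2 and 7 chose the genes, these medians and counts are a description.

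Between stages 2 and 7, 32 of the 61 genes were higher by at least 1 in WT and lower by at least 1 in d1. In 13 genes only the WT value moved that far, and in 16 genes only the d1 value did. Over all genes that passed the filter, 5.67% were higher by at least 1 in WT at stage 7 than at stage 2 and 4.05% were lower by at least 1 in d1. The rule used these columns, so nothing further is read from these counts. The values of stages 1 and 4 did not enter the rule. From stage 1 to stage 4, 24 of the 61 genes were higher in WT by at least 1 and 1 was lower, where 5.24% and 1.88% of all genes were. In d1, 8 were higher and 11 were lower over the same interval, where 4.63% and 2.50% of all genes were. The median change from stage 1 to stage 4 was 0.82 in WT and -0.48 in d1 (log2 scale). Other genes past 1 at stage 2 or 7 shared part of this. Higher by at least 1 in WT were 39.3% of the 61 genes and 18.1% of the 277 other genes higher in d1 at stage 2. Of the 242 other genes lower in d1 at stage 7, 31.8% were. Lower by at least 1 in d1 were 18% of the 61 genes, 17% of the 277 and 5.37% of the 242. These contrasts were not tested.

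**Figure D3:**
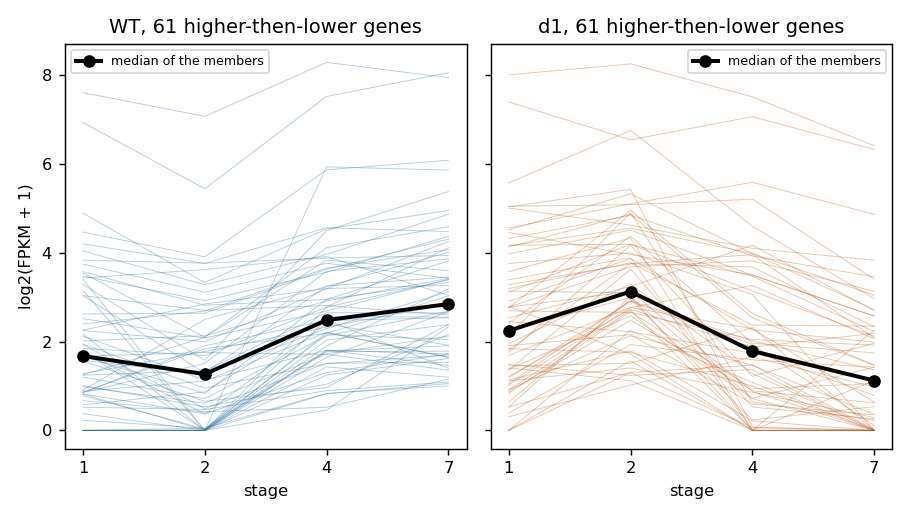
Level of the 61 higher-then-lower genes as log2(FPKM + 1) (y axis) by stage (x axis, evenly spaced labels) in WT and in d1, with 1 thin line a gene and the median in black. The WT median dips at stage 2 and is highest at stage 7, and the d1 median peaks at stage 2 and is lowest at stage 7. Stages 2 and 7 chose these genes.

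OS04G0225067, on chromosome 4, stood first when members were ranked by the smaller of their 2 absolute differences. Its WT values at stages 1, 2, 4 and 7 were 7.88, 0, 2.75 and 8.11 FPKM, and its d1 values were 31.8, 42.1, 0.052 and 0 FPKM. The gene was thus listed at 0 in WT at stage 2, where d1 was highest, and at 0 in d1 at stage 7, where WT was highest. Its differences were 1.89, 5.43, -1.83 and -3.19 at the 4 stages. OS04G0611266, also on chromosome 4, stood next with WT values of 9.60, 0, 60.3 and 57.3 FPKM. Its d1 values were 46.7, 107, 23.2 and 6.83 FPKM, with differences of 2.17, 6.76, -1.34 and -2.90. Both genes were higher in d1 at stages 1 and 2 and higher in WT at stages 4 and 7.

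Sign changes were also seen at high levels, where a listed 0 plays no part. The most abundant member, OS03G0803100 on chromosome 3, was singled out after its values were seen. It had WT values of 194, 134, 312 and 246 FPKM and d1 values of 257, 305, 182 and 84.2 FPKM. Its differences were 0.40, 1.18, -0.78 and -1.53. The next in abundance, on chromosome 6, had WT values of 122, 42.5, 183 and 265 FPKM and d1 values of 168, 92.4, 133 and 79.4 FPKM. Its d1 value was lower at stage 2 than at stage 1 and lowest at stage 7, and its WT value was lowest at stage 2. Of the 61 genes, 5 had a mean of at least 20 FPKM, 23 had a mean of 5 to 20 FPKM, and 33 were below 5 FPKM. Below 5 FPKM were 54.1% of these genes, against 30.4% of all genes that passed the filter. The share was not particular to the members. It was 66.1% among the 277 other genes higher in d1 at stage 2 and 57.4% among the 242 other genes lower at stage 7.

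Listed zeros were common among the members. At least 1 of the 8 values was 0 in 18 of the 61 genes (29.5%), where 1.47% of all genes that passed the filter had one. The share was 4.56% among genes with a mean under 5 FPKM. It was 18.1% among the 277 other genes higher in d1 at stage 2 and 14.0% among the 242 other genes lower at stage 7. In 17 of the 61 genes a 0 was in a column of stages 2 or 7. The rule favours this, since it requires 1 genotype to lie below the other at both stages, so nothing further is read from the shares. Under 1 FPKM in both WT at stage 2 and d1 at stage 7 were 22 genes, and 24 genes had at least 1 FPKM in each of the 8 groups. Without genes listed at 0 in a column of stages 2 or 7, an alternative added after the data were seen, 44 higher-then-lower genes and 1 lower-then-higher gene were left. With a mean of at least 5 FPKM required, the counts were 28 and 1. The pseudocount moved the counts to 160 and 35 with 0.1 and to 12 and 1 with 5.

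Stages 1 and 4 give differences that did not choose the members. At stage 1, 46 of the 61 higher-then-lower genes were above 0, 13 were below 0 and 2 were listed at 0 in both genotypes, where 53.9% of all genes were above 0. Their median difference was 0.51, against 0.02 over all genes. Past 1, 13 were higher in d1 and 4 were lower, which is 21.3% and 6.56%, where the background was 1.52% and 0.456%. At stage 4, 48 of the 61 genes were below 0 and 13 above 0, where 49.4% of all genes were below 0. The median difference was -0.62, against 0.00 over all genes. Past 1, 15 were lower in d1 and 1 was higher, which is 24.6% and 1.64%, where the background was 0.957% and 0.719%. Without the genes listed at 0 at stage 2 or 7, 6 were higher by at least 1 at stage 1 and 7 were lower at stage 4, of 44.

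Stage 1 thus lay on the side of stage 2, and stage 4 on the side of stage 7, in most of these genes. The full order of higher, higher, lower and lower in d1 over the 4 stages was shown by 35 of the 61 genes. In 11 genes d1 was higher at stages 1, 2 and 4 and lower at stage 7 alone, and in 11 it was higher at stage 2 alone. A further 2 genes were higher in d1 at stages 2 and 4, and 2 were level at stage 1. Past 1 at both other stages, higher at stage 1 and lower at stage 4, were 6 genes, and 36 genes were past 1 at neither.

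**Figure D4:**
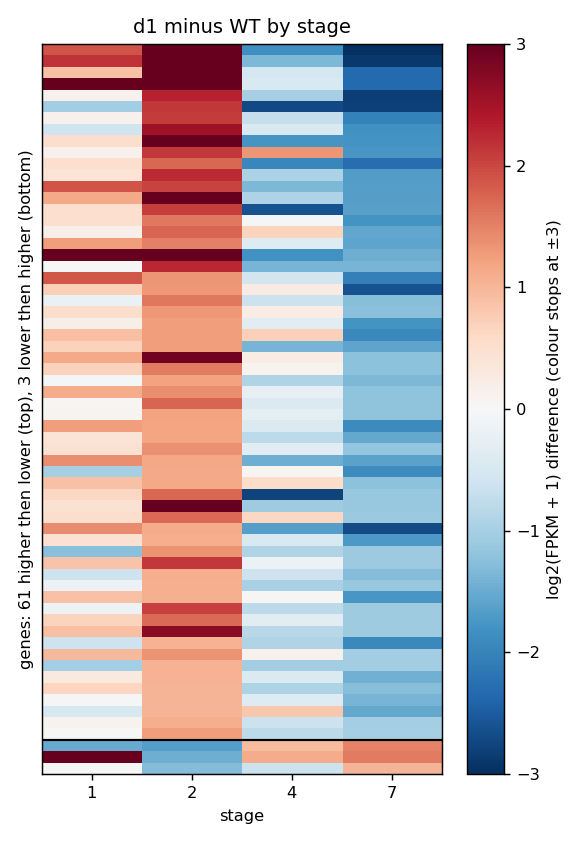
Difference of d1 minus WT in log2(FPKM + 1) for the 64 genes (rows, ordered within each direction by the smaller of their absolute differences at stages 2 and 7) at each stage (columns), with red for higher and blue for lower in d1. Stages 2 and 7 chose the rows, while stage 1 is mostly red and stage 4 mostly blue in the 61 upper rows.

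Genes that passed 1 at a single end of the rule were set beside these values. Of the 277 other genes higher in d1 at stage 2, 15.9% were higher by at least 1 at stage 1, and their median difference there was 0.40. At stage 4 these genes had a median of 0.18, and 4.69% of them were lower by at least 1. Of the 242 other genes lower in d1 at stage 7, 31.4% were lower by at least 1 at stage 4, with a median of -0.58. At stage 1 these had a median of -0.05, and 5.37% were higher by at least 1. For the 61 genes the shares were 21.3% higher at stage 1 and 24.6% lower at stage 4. By sign alone, 78.7% of the 277 genes were above 0 at stage 1, against 75.4% of the 61. Below 0 at stage 4 were 81.8% of the 242 genes, against 78.7% of the 61. These contrasts between gene groups were not tested.

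**Figure D5:**
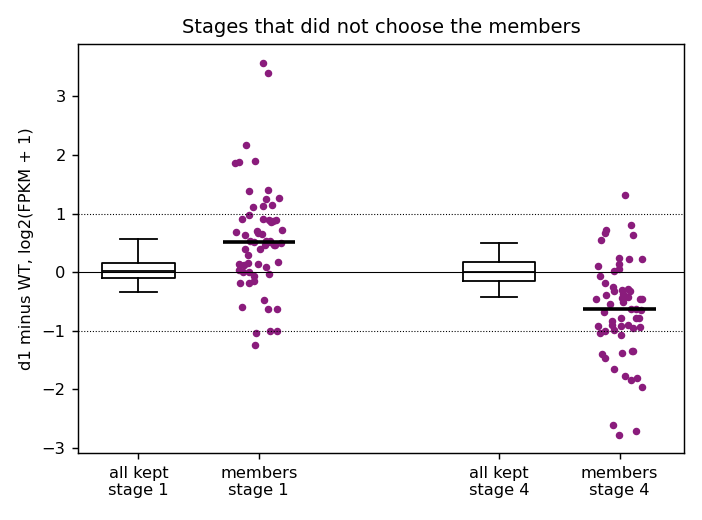
Difference of d1 minus WT in log2(FPKM + 1) (y axis) at stages 1 and 4 for all 19757 genes that passed the filter (boxes show quartiles, whiskers the 5th and 95th percentiles) and for the 61 higher-then-lower genes (points, with a bar at the median). The member medians are 0.51 at stage 1 and -0.62 at stage 4, and the points spread on both sides of 0 at each stage.

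The members with the largest differences at stages 1 and 4 included genes that kept this order and genes that did not. OS08G0376400 on chromosome 8 had the largest positive stage 1 difference among the higher-then-lower genes, with WT values of 0, 0, 0.37 and 4.04 FPKM and d1 values of 10.9, 19.2, 0 and 0 FPKM. The gene was thus listed above 0 at stages 1 and 2 in d1 alone and at stages 4 and 7 in WT alone. OS04G0497000 on chromosome 4 was lower in d1 at stage 1 by 1.25 on the log2 scale, with WT values of 3.36, 1.19, 2.50 and 2.29 FPKM and d1 values of 0.83, 4.59, 0.86 and 0.54 FPKM. Its d1 value exceeded that of WT at stage 2 alone. At stage 4 the most negative differences were those of OS11G0680500 (-2.77, chromosome 11) and OS03G0718150 (-2.72, chromosome 3). OS11G0680500 had WT values of 3.50, 0, 5.84 and 9.52 FPKM and d1 values of 5.94, 2.30, 0 and 3.80 FPKM, so its listed zeros were at stage 2 in WT and at stage 4 in d1. OS03G0718150 had WT values of 2.18, 0.78, 6.74 and 9.09 FPKM and d1 values of 0.56, 6.73, 0.18 and 0.45 FPKM, a peak at stage 2 alone. OS02G0782366 on chromosome 2 was the higher-then-lower gene past 1 in the other direction at stage 4, with a WT value of 0.95 FPKM and a d1 value of 3.89 FPKM there, a difference of 1.32.

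In each of the 3 lower-then-higher genes the highest of the 4 WT values was at stage 2. The rule favours this, since it requires WT to exceed d1 there, so nothing further is read from it. The genes differed in their d1 course. OS01G0666101 on chromosome 1 had WT values of 1.87, 2.13, 1.58 and 0.78 FPKM and d1 values of 0, 0, 3.95 and 3.95 FPKM. It was listed at 0 in d1 at the first 2 stages and was above WT at the last 2, with differences of -1.52, -1.65, 0.94 and 1.48. OS11G0167800 on chromosome 11 had WT values of 8.56, 30.9, 4.24 and 5.25 FPKM and d1 values of 314, 10.5, 10.4 and 17.3 FPKM. Its value of 314 FPKM in d1 at stage 1 exceeded each of its other 7 values by far, with a difference of 5.04 there against -1.47, 1.12 and 1.55 at stages 2, 4 and 7. Its difference therefore changed sign both after stage 1 and after stage 2. The third, OS03G0334951 on chromosome 3, is named because so few genes took this direction. It had WT values of 0.0080, 1.48, 0.56 and 0.00051 FPKM and d1 values of 0.00047, 0, 0.00063 and 1.01 FPKM, so the differences that met the rule set values of 1.48 and 1.01 FPKM against values at or near 0.

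Some members lay close to the threshold. The higher-then-lower gene nearest to it had a smaller absolute difference of 1.004, and the nearest genes that missed the rule had 0.9997 and 0.9991. For the other direction the nearest member was at 1.009 and the nearest gene outside at 0.931. With the threshold lowered to a 1.5-fold difference the counts were 231 and 52, and with it raised to 1.5 on the log2 scale they were 18 and 0.

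The members were spread over the genome. The 61 higher-then-lower genes lay on all 12 chromosomes, with 10 on chromosome 1, 8 on chromosome 4 and 1 each on chromosomes 10 and 12. Chromosome 1 held 16.4% of the 61 genes, against 14% of all genes that passed the filter. Chromosomes 10 and 12 held 1.64% each, against 4.99% and 5.25%. Chromosome 9 held 6 of the 61 genes, or 9.84% against 5.63%, and chromosome 4 held 13.1% against 8.56%. On chromosome 5, where RGA1 lies, there were 4, or 6.56% against 8.32%. By identifier order, 0 pairs of members were adjacent among the genes that passed the filter. With members at 0.309% of these genes, a count of 0 says little about them. The 122 genes next to a member had median differences of 0.05 at stage 2 and 0.01 at stage 7. Of these neighbours, 7 were higher in d1 by at least 1 at stage 2 (5.74%) and 6 were lower by at least 1 at stage 7 (4.92%), where 1.71% and 1.53% of all genes were. Above 0 at stage 2 and below 0 at stage 7 were 27.9% of the neighbours and 23.7% of all genes.

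The form of the identifier set many members apart from the bulk of the table. In 32 of the 61 higher-then-lower genes (52.5%) the identifier number did not end in 00, where 13.2% of all genes that passed the filter, and 22.8% of those with a mean under 5 FPKM, had such a number. The share was 39.4% among the 277 other genes higher in d1 at stage 2 and 34.3% among the 242 other genes lower at stage 7. What kind of locus these identifiers stand for is not given in the files. The 32 genes had a median difference of 1.58 at stage 2 and -1.58 at stage 7, and the other 29 had 1.35 and -1.40. Stages 2 and 7 chose these genes, so these medians are a description. At stages 1 and 4, which did not enter the rule, the 32 genes had medians of 0.67 and -0.49. The other 29 had 0.40 and -0.64 there, and the contrasts were not tested. Listed zeros were found in 12 of the 32 genes and in 6 of the 29. Strand and overlap with other genes are not given, so reads of an overlapping or antisense gene cannot be told apart from those of a member.

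Gene lists written from general knowledge, 114 identifiers in 12 lists, were searched for members. Of these, 60 passed the filter, and 2 of the 60 were higher-then-lower genes, where 0.309% of all genes that passed were. The lists were chosen with earlier results of these data known, so nothing further is read from this count. One of the 2 genes was the single identifier left of the water deficit and abscisic acid list, on chromosome 9. It had WT values of 0.81, 2.75, 4.57 and 4.80 FPKM and d1 values of 1.57, 11.4, 0.44 and 0.20 FPKM. The d1 value was above that of WT at stages 1 and 2 and below it at stages 4 and 7. The other was on the defence list, on chromosome 5, with WT values of 2.60, 2.22, 5.87 and 16.3 FPKM and d1 values of 1.32, 5.62, 2.67 and 3.55 FPKM. It was above WT at stage 2 alone. The 2 other defence identifiers that passed the filter were higher in d1 at stage 7, the stage at which that gene was lower, so the list's genes did not share a direction there.

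None of the 58 remaining identifiers met the rule, which 0.309% and 0.0152% of all genes met in its 2 directions, so a count of 0 is near the background. These included 5 floral and inflorescence MADS-box, 7 panicle branching and spikelet meristem, 3 KNOX, 7 heterotrimeric G protein, 4 gibberellin, 5 jasmonate, 4 circadian clock, 4 meiosis and tapetum and 2 heat shock identifiers. The panicle branching list had a median difference of 0.20 at stage 2 and -0.14 at stage 7, and 0 of its members were past 1 at any stage. For the MADS-box list the medians were 0.05 and 0.30, and for the KNOX list -0.08 and 0.10. The jasmonate list had 2 of 5 identifiers higher in d1 by at least 1 at stage 2 and 0 past 1 at stage 7, where 1.71% of all genes were higher at stage 2 and 0.592% were higher and 1.53% lower at stage 7.

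Photosynthesis genes, which mark leaf tissue, differed between the groups and are given beside these results. Of 15 identifiers that passed the filter, 0 were members. Their median differences over the 4 stages were 1.64, -0.80, 0.58 and -0.17. In d1, 15 of 15 were higher at stage 1, 12 of 15 were lower at stage 2, 13 of 15 were higher at stage 4 and 12 of 15 were lower at stage 7. Over all genes that passed the filter, 53.9% were higher at stage 1 and 48% lower at stage 2. At stage 4, 50.5% were higher, and at stage 7, 48.7% were lower. Past 1, 12 of the 15 were higher in d1 at stage 1, where 1.52% of all genes were. By at least 1 at stage 2, 6 were lower and 1 was higher, where 1.09% and 1.71% of all genes were. Likewise 5 were higher at stage 4, where 0.719% of all genes were, and 1 was lower at stage 7, where 1.53% were. The list thus had the sign of the members' median at stages 1 and 7 and the opposite sign at stages 2 and 4. The summed level of the 16 identifiers in the table was at WT values of 114, 291, 170 and 193 FPKM and d1 values of 325, 224, 254 and 191 FPKM, and 0 of the 16 were listed at 0 in any group. Whether leaf tissue had a part in the members' differences was not tested. The 6 identifiers of the meiosis and tapetum list summed to 127 to 182 FPKM over the 8 groups. Most of this came from 1 identifier on chromosome 1, at 85.3 to 139 FPKM, and the sum was no higher at stage 7 than at stage 1 in either genotype.

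Genes that followed the same course without meeting the rule were sought by correlation with the members' median profile over the 8 groups. The closest to the higher-then-lower profile was OS03G0784300 on chromosome 3 (Pearson's r of 0.982 over 8 values, chosen as the highest of all genes). It stayed within 6.91 to 8.26 FPKM, with differences of 0.10, 0.23, -0.12 and -0.22. The next was OS07G0516801 on chromosome 7 (r of 0.961), with WT values of 6.94, 6.66, 12.4 and 14.1 FPKM and d1 values of 12.2, 15.4, 9.33 and 7.11 FPKM. Its differences of 1.09 at stage 2 and -0.90 at stage 7 left it just outside the rule.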

How the data were processed

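Total RNA of 16 libraries was sequenced by the authors. The deposited values are FPKM, 1 combined value per gene for each genotype and stage; no header states the unit, which was read off the tools and the numbers. Per the submitters' processing notes, FastQC, Trimmomatic, TopHat2, Cufflinks and Cuffdiff were used with build IRGSP-1.0, without versions. The scaling between columns is not stated. The depth behind each value is unknown, so no interval or floor is given.

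The table held 34302 rows, 4802 of them at 0 throughout and 54 joining several names; 0 members joined names. A row was kept if 2 or more columns reached 1 FPKM, and log2(FPKM + 1) differences were computed in Python 3.11.15 with pandas 2.3.3. A difference on this scale understates the change of low genes. The fit planned for values per library could not be made, so no test was run. The code of the selection rule was run on simulated data with small noise of the same size at all levels. Sign changes were planted in the more abundant genes alone. The simulation thus does not show how the rule behaves for low or zero values, which many members had. Named genes were the first 2 of each direction by the smaller absolute difference, the extremes past 1 at stages 1 and 4, and the 2 genes most like each direction's median profile; exceptions are stated. For the lower-then-higher direction these 2 are not described, its profile resting on 3 genes. Chromosomes are read from the identifiers. Members and lists were chosen with earlier results of these data known, and no table used here pairs the list identifiers with names. Alternatives were other pseudocounts, filters, scalings and thresholds.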

Additional observations from a re-analysis of the deposited data

Results flagged for a closer look

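Named members whose d1 minus WT difference pointed in opposite directions at stages 2 and 7 are given by the gap between the 2 differences. The rule selected them for this, each group has 1 combined value, and the gap was not tested. On the log2(FPKM + 1) scale, the stage 2 difference less the stage 7 difference was 8.62 for OS04G0225067 and 9.66 for OS04G0611266. It was -3.13 for OS01G0666101 and -3.03 for OS11G0167800.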

How the results depend on the processing

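Counts of higher-then-lower and lower-then-higher genes were 61 and 3. They were 160 and 35 with a pseudocount of 0.1, 12 and 1 with 5, 28 and 1 where genes had to average 5 FPKM, 231 and 52 at a 1.5-fold threshold, and 18 and 0 at 1.5 on the log2 scale. Without genes listed at 0 at stage 2 or 7 they were 44 and 1. Median scaling (59 and 3), quantile normalization (54 and 4, of which 53 and 2 were members), no filter (61 and 3) and leaving out joined rows (61 and 3) stayed within 1.5 times. Of the 61 genes, those higher by at least 1 at stage 1 numbered 13, and 20, 4 and 6 with a pseudocount of 0.1, of 5 and without listed zeros. Those lower at stage 4 numbered 15, and 28, 4 and 7. These moves follow from the pseudocount, the threshold and the genes tested. Alternatives were computed for the stage 2 and 7 differences of the first 2 genes of each direction, and for the extremes at stages 1 and 4. Of these 64 alternative values, 58 kept their direction and stayed past 1. The other 6 kept their direction but fell under 1, each with a pseudocount of 5. OS03G0803100, OS03G0334951 and the stage 2 and 7 differences of the other named members were not among them. No paired analysis was possible because the authors had combined the libraries of each group, and for the same reason no replicate could be left out. Unknown depth limits what can be said of genes near 1 FPKM.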
